A study of Arabidopsis thaliana with 8 samples.

Results

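Cysteine-rich receptor-like kinases (CRK) and receptor-like proteins (RLP) are the plant cell surface receptors described here. The cells were epidermal root cells of Arabidopsis thaliana that bear no hair. The members were the nuclear protein-coding genes whose symbol or synonym in the RefSeq annotation of TAIR10.1 is CRK or RLP followed only by digits and whose product names a receptor. The rule gave 93 of 27444 nuclear protein-coding genes, of which 41 were CRK and 52 were RLP, and it used no measured value. It left out genes that carry another leading name, among them CLAVATA2 and TOO MANY MOUTHS, and pseudogenes.

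The data were chromatin immunoprecipitation followed by sequencing on nuclei taken by INTACT, a method that tags the nuclear envelope of 1 cell type with biotin and captures it on streptavidin beads. All groups came from the same stable line in the Col-0 background, in which the nuclear tag was driven by the GLABRA2 promoter and the biotin ligase BirA by the ACT2 promoter. Seedlings were aged 10 days, with no treatment named in the labels, and 3 g of 1.25 cm segments from the fully differentiated zone, without tip or lateral roots, went into each sample. The 6 targets were H3K4me1, H3K4me3, H3K27ac, H3K27me3, H2A.Z (a variant of histone H2A) and H3 itself, with 1 library each; the other 2 samples were inputs, 1 of them for H3K27me3, and were not analysed here. The deposited files give the positions of called regions with no height or read count, so the depth is unknown and every value below is a number of bases or a count of genes. With 1 library a target there is no replicate check, no error and no test: a share among members is set beside the same share among all protein-coding genes and among genes of similar length.

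CRKs span the plasma membrane, with cysteine-rich DUF26 domains outside the cell and a serine/threonine kinase inside, and are known for roles in defence, cell death and responses to reactive oxygen. RLPs carry leucine-rich repeats outside the cell and only a short tail inside, so they signal through partner kinases such as SOBIR1 and BAK1; several recognise molecules of fungi, oomycetes or bacteria, and others act in development. In plants H3K4me3 and H3K27ac are found near the starts of transcribed genes, H3K4me1 along gene bodies, and H3K27me3, set by Polycomb complexes, on repressed genes. H2A.Z sits at the first nucleosomes of many genes and along the bodies of genes that respond to the environment.

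The families differ in where they lie. Of the 41 CRK genes 36 were on chromosome 4, with 3 on chromosome 1 and 1 each on chromosomes 3 and 5, and none on chromosome 2. The RLP genes were spread over all 5 chromosomes, with 14, 11, 16, 5 and 6 on chromosomes 1 to 5. CRK genes had a median length of 2936 bp and a median of 7 exons, whereas 31 of the 52 RLP genes had 1 exon, at a median gene length of 2808 bp. Both families are longer than the median coding gene (2078 bp), and a longer gene has more room for a region. A second background was therefore the other coding genes between the 10th and 90th percentile of each family's lengths, which were 5574 genes for CRK and 13711 for RLP.

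A feature the families share, and which the rule did not use, lies in their promoters. The core of the W-box, TTGAC on either strand, is the element that WRKY transcription factors bind in many defence genes. In the window from 250 bp before to 50 bp after the annotated start it occurred in 31 of 41 CRK genes (75.6%) and in 40 of 52 RLP genes (76.9%), against 50.5% of 27443 windows of all coding genes. At least 2 cores were present in 17 CRK windows (41.5%) and 20 RLP windows (38.5%), against 17.7% of all. GC content did not set the families apart, with means of 32.4% for CRK, 32.0% for RLP and 32.2% for all windows. A match is only a run of letters and shows no binding; related promoters within a cluster also share sequence by descent and are not independent counts. The windows below are printed 5′ to 3′ on the gene's strand from RefSeq TAIR10.1, in lower case with the core in capitals. The first pair is from the adjacent genes RLP11 and RLP12, whose marks contrast; RLP28 and CRK16 follow because called H3K27me3 regions cover their whole windows, RLP23 because its gene carries all 6 targets, and CRK11 because it holds the most cores and the longest H3K27ac region of a CRK.
RLP11 promoter, chr1:26906151-26906450, plus strand: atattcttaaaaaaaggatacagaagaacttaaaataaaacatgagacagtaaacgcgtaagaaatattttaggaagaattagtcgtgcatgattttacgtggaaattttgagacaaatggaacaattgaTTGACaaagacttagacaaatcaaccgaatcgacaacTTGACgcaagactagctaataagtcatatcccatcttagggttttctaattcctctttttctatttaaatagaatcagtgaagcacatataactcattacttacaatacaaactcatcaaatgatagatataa
RLP12 promoter, chr1:26909542-26909841, plus strand: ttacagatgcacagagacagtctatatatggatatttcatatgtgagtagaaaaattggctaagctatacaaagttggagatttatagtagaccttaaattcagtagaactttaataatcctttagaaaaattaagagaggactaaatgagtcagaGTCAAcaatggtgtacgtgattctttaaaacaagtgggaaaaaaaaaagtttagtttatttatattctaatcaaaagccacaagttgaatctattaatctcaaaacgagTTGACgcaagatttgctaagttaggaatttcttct
RLP28 promoter, chr2:14031748-14032047, plus strand: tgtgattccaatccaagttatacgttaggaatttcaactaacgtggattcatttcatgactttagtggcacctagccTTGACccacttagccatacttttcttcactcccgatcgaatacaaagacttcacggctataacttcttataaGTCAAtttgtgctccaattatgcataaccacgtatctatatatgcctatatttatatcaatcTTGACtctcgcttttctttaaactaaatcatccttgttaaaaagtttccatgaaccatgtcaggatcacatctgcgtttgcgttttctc
CRK16 promoter, chr4:12163144-12163443, minus strand: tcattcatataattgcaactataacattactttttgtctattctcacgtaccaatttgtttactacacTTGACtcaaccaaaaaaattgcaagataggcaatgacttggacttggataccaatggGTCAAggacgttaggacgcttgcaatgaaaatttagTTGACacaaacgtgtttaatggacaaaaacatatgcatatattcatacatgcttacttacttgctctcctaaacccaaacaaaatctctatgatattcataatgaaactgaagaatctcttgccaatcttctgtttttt
RLP23 promoter, chr2:13862565-13862864, minus strand: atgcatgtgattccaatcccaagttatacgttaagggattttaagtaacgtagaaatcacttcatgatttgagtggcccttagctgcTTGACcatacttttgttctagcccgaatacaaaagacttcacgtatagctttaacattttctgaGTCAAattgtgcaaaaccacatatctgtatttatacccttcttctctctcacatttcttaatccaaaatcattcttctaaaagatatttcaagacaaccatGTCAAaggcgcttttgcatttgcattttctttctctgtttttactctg
CRK11 promoter, chr4:12143809-12144108, minus strand: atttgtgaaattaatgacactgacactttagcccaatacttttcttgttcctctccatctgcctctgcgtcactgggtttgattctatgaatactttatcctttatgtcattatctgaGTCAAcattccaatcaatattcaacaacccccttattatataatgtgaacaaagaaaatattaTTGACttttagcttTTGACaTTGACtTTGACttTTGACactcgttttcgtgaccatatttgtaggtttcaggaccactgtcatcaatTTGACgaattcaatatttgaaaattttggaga

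The RLP11 and RLP12 windows hold 2 cores each, so this element did not separate the neighbours. H3K27me3 regions covered 274 of 300 bp of the RLP11 window and none of the RLP12 window. In RLP28 both H3K27me3 and H2A.Z covered all 300 bp, with 3 cores inside, and in CRK16 H3K27me3 covered 300 bp and H3K27ac 118 bp. The CRK16 window lies wholly inside the gene CRK17, so its marks cannot be assigned to CRK16 alone. CRK11 held 7 cores, and no other member held more than 4.

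A gene is called marked below when regions of a target cover at least 200 of its bases, from its annotated start to its end. H3K4me1 marked 29 of 41 CRK genes (70.7%) and 34 of 52 RLP genes (65.4%), above the 52.1% of all coding genes but below or near genes of CRK length (77.6%) and RLP length (69.9%). H3K4me3 marked 7 CRK genes (17.1%) and 10 RLP genes (19.2%), against 25.7% of all genes, 35.9% at CRK length and 33.9% at RLP length. With any base counted it touched 13 CRK genes (31.7%) and 22 RLP genes (42.3%), against 40.1% of all genes, 53.5% at CRK length and 50.8% at RLP length. The RLP share was then above that of all genes and still under that of genes of its length, since 12 RLP genes and 6 CRK genes held exactly 1 smallest region of 189 bp. The families parted on H3K27ac, which marked 21 CRK genes (51.2%) and 38 RLP genes (73.1%). All coding genes stood at 56.6%, those of CRK length at 72.9% and those of RLP length at 70.1%, so the RLP share was near its length background and the CRK share under its own.

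H3K27me3 went the other way, with 22 CRK genes (53.7%) and 19 RLP genes (36.5%) marked, against 41.9% of all genes, 45.2% at CRK length and 45.0% at RLP length. H2A.Z stood above background in both at this threshold, with 26 CRK genes (63.4%) and 28 RLP genes (53.8%), where all genes stood at 38.2%, CRK length at 44.3% and RLP length at 43.8%. With at least 25% of the gene covered, H2A.Z held 5 CRK genes (12.2%), now under the 15.2% of all genes but above the 9.40% at CRK length, and 12 RLP genes (23.1%), above both backgrounds (11.3% at RLP length). Histone H3 regions marked 25 CRK genes (61.0%) and 21 RLP genes (40.4%), against 42.6% of all genes, 57.4% at CRK length and 52.7% at RLP length. The nucleosome library thus ranked the families in the same order as H2A.Z and H3K27me3, CRK above RLP; its part in those differences was not tested.

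**Figure D1:**
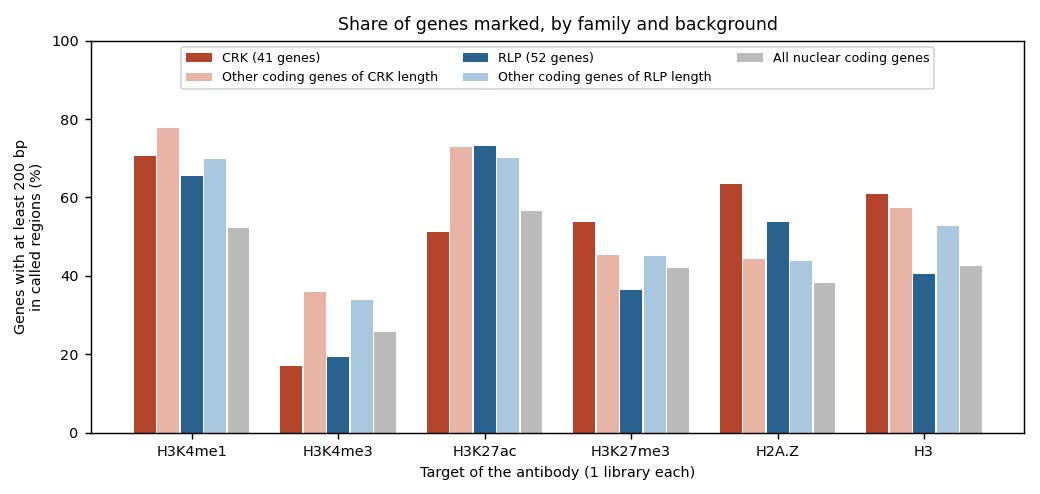
Share of genes (y axis, %) with at least 200 bp in called regions, for each target (x axis, 1 library each). Dark bars are CRK and RLP, pale bars the other coding genes of each family's length range, and grey bars all nuclear coding genes; H2A.Z is the target for which both families stand above every background, at 63.4% and 53.8%.

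The size of the smallest region bears on these counts. Each library has 1 smallest region size that recurs, 254 bp for H3K4me1, 241 bp for H3K27me3 and 211 bp for H3, but 189 bp for H3K4me3, 183 bp for H2A.Z and 179 bp for H3K27ac, so a lone smallest region marks a gene for the first 3 targets and not for the others. For H3K27ac 10 CRK genes held between 1 and 199 bp, and 7 of these held exactly 1 smallest region. With any base counted, H3K27ac touched 31 CRK genes (75.6%), against 68.3% of all genes and 83.3% at CRK length, and 44 RLP genes (84.6%), against 80.6% at RLP length. The CRK share of H3K27ac is then above that of all genes and still under that of genes of its length.

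Few H3K27me3 regions of CRK genes were long. The 45 H3K27me3 regions touching a CRK gene had a median size of 306 bp, near the 305 bp of those touching any coding gene. Only 3 of them (6.67%) reached 500 bp, against 20.2% of the H3K27me3 regions that touch any coding gene. The 39 regions touching an RLP gene had a median of 313 bp, and 12 of them (30.8%) reached 500 bp. Regions of 500 bp were also scarcer in CRK genes than in all coding genes for H3K4me1 (8.00% against 21.7%) and H3K27ac (4.55% against 12.9%). The same held for H3K4me3 (6.25% against 8.06%) and H2A.Z (3.03% against 5.30%), but not for H3 (2.44% against 1.58%). With only regions of at least 500 bp kept, H3K27me3 marked 2 of 41 CRK genes (4.88%; 11.7% of all genes and 10.7% at CRK length) and 9 of 52 RLP genes (17.3%; 11.4% at RLP length). The order of the families for H3K27me3 therefore depends on region size: CRK lay above RLP when all regions counted and below it when only long ones did. The caller's rule for joining regions is not given in the sources used here, and it sets these sizes.

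**Figure D2:**
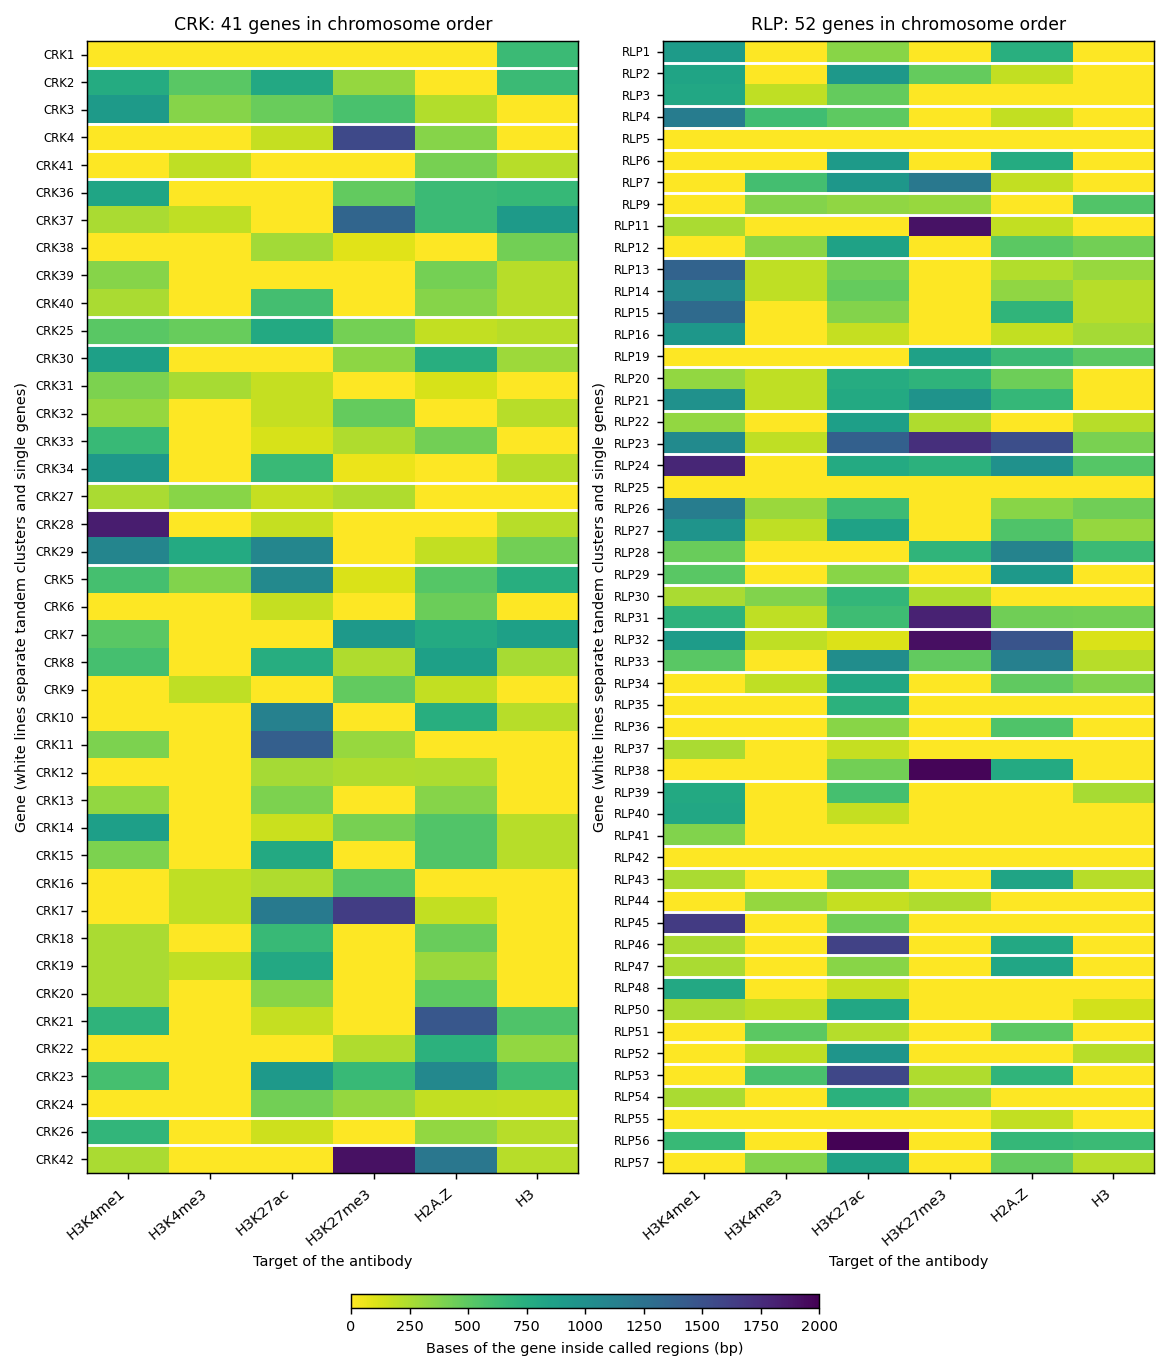
Bases of each gene inside called regions (colour, 0 to 2000 bp) for the 41 CRK genes on the left and the 52 RLP genes on the right, in chromosome order, by target (x axis, 1 library each). White lines separate tandem clusters and single genes; H3K27me3 is dark in a few separate genes, such as CRK42, RLP11, RLP32 and RLP38, rather than over whole clusters.

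The highest H3K27me3 cover among CRK genes was 1907 bp in CRK42, followed by 1638 bp in CRK17, 1560 bp in CRK4, 1347 bp in CRK37 and 925 bp in CRK7. CRK42, CRK37 and CRK7 held no H3K27ac, CRK4 held 179 bp, and CRK17 held 1180 bp of it. CRK17 (EMB1290) is 5023 bp long and shares 1190 bp with CRK16, and bases under a shared stretch count for both genes. CRK42 had the 2 longest H3K27me3 regions of a CRK gene, at 750 bp and 509 bp, ahead of 508 bp in CRK7, and also held 1204 bp of H2A.Z.

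Among RLP genes H3K27me3 reached 1976 bp in RLP38, which is 82.4% of the gene, 1917 bp in RLP32, 1904 bp in RLP11 (73.9%), 1810 bp in RLP31 (62.0%) and 1730 bp in RLP23 (60.8%). Of these 5, RLP11 and RLP32 were not marked by H3K27ac, with 0 and 105 bp. RLP23 held 1386 bp, RLP31 619 bp and RLP38 428 bp of H3K27ac, so long H3K27me3 cover and H3K27ac occurred in the same genes.

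Over both marks, 10 CRK genes (24.4%) and 14 RLP genes (26.9%) had H3K27ac and H3K27me3 together, against 22.3% of all genes, 30.8% at CRK length and 28.8% at RLP length. H3K27ac without H3K27me3 was found in 11 CRK genes (26.8%) and 24 RLP genes (46.2%), against 34.3% of all, 42.2% at CRK length and 41.2% at RLP length. H3K27me3 without H3K27ac was found in 12 CRK genes (29.3%) and 5 RLP genes (9.62%), against 19.6% of all, 14.4% at CRK length and 16.1% at RLP length. At this threshold the CRK share of this last state was above every background and the RLP share below every background. Some of these genes held a little H3K27ac: 179 bp in CRK4, CRK27, CRK32 and RLP44, 158 bp in CRK14, 118 bp in CRK33 and 105 bp in RLP32. H3K27me3 on at least 200 bp with no base of H3K27ac, a rule added after seeing the data, was left in 7 CRK genes (17.1%) and 3 RLP genes (5.77%), against 14.1% of all, 9.29% at CRK length and 10.8% at RLP length. Neither mark was found in 8 CRK genes (19.5%) and 9 RLP genes (17.3%), against 23.8% of all, 12.7% at CRK length and 13.8% at RLP length.

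The base pairs themselves were also compared. Of the 14124 bp of H3K27me3 in CRK genes 11.9% also lay under H3K27ac, against 27.4% of the 17011 bp in RLP genes and 18.2% over all coding genes. H3K27ac covered 13.2% of all bases of CRK genes, 18.4% of RLP genes and 14.5% of all coding genes. The CRK overlap was thus near the share of H3K27ac in CRK bases at large. H2A.Z lay over 19.6% of the H3K27me3 bases of CRK genes, 28.3% of those of RLP genes and 19.8% over all coding genes. Of all bases it covered 13.0% in CRK genes, 13.4% in RLP genes and 9.42% in all coding genes. Regions of both can overlap because the same nuclei carry both marks or because nuclei differ, and these cannot be told apart here.

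**Figure D3:**
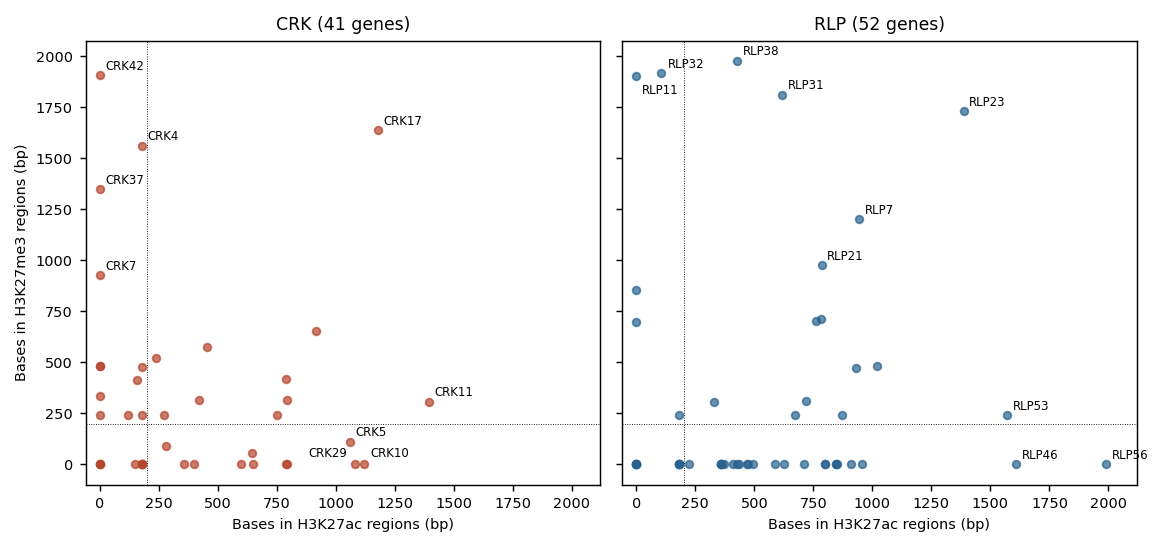
Bases of each gene in H3K27me3 regions (y axis, bp) against bases in H3K27ac regions (x axis, bp); each point is 1 gene, CRK on the left and RLP on the right, and dotted lines mark 200 bp. CRK42, CRK4, CRK37 and CRK7 lie along the left edge, while RLP23, RLP31, RLP7 and RLP21 hold both marks.

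H3K4me1 and H2A.Z often marked the same CRK gene. The pair was found in 20 of 41 (48.8%), against 23.7% of all genes and 34.3% at CRK length, and in 19 of 52 RLP genes (36.5%), against 31.3% at RLP length. A share of genes with both rises with the share of each. In CRK genes H3K4me1 and H2A.Z alone marked 70.7% and 63.4%, against 77.6% and 44.3% at CRK length. Whether they met more often than these single shares give was not tested. The most frequent full combination in CRK genes was H3K4me1, H3K27me3, H2A.Z and H3 without H3K4me3 or H3K27ac, in CRK7, CRK14, CRK30, CRK36, CRK37 and CRK42; 1.94% of all coding genes had it. In RLP genes it was H3K4me1, H3K27ac, H2A.Z and H3, in RLP13, RLP14, RLP15, RLP27, RLP43 and RLP56, a combination of 4.26% of all genes. Cover of at least 1 base by all 6 targets was seen in CRK5 and CRK25 (4.88% of CRK genes) and in RLP23, RLP31 and RLP32 (5.77% of RLP genes). Both shares lie near the 4.60% of all genes and under the 7.19% at CRK length and 6.05% at RLP length.

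H3K4me3 and H3K27me3 marked the same gene in 4 CRK genes (9.76%) and 5 RLP genes (9.62%), near the 11.2% of all genes. These were CRK2, CRK3, CRK25 and CRK27, and RLP7, RLP9, RLP30, RLP44 and RLP53. RLP7 held 597 bp of H3K4me3 and 1201 bp of H3K27me3, the most of both among them, and CRK3 held 362 bp and 577 bp.

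There were 3 RLP genes with no region of any target (RLP5, RLP25 and RLP42), and no CRK gene was without one; 7.45% of all coding genes had none. RLP5 and RLP25 are short, at 801 bp and 657 bp. RLP42, the receptor for fungal endopolygalacturonases, is 3121 bp long, and only 68.4% of its start positions for a run of 50 bp are unique in the genome, the lowest value of the 93 genes. Reads from repeated stretches are hard to place, and cover in repeated positions was low in general: H2A.Z covered 13.3% of unique and 2.72% of repeated positions in CRK genes, and 9.60% and 1.81% in all coding genes. Below 90% unique lay 4 CRK genes, CRK6, CRK8, CRK13 and CRK22, and 9 RLP genes, RLP34, RLP35, RLP39, RLP40, RLP41, RLP42, RLP47, RLP48 and RLP53; the part of repeats in the low values of these genes was not tested.

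Tandem clusters were defined as members of 1 family with at most 2 other coding genes between neighbours. They held 34 of the 41 CRK genes in 5 clusters and 28 of the 52 RLP genes in 11 clusters. The largest was the row of 20 genes from CRK5 to CRK24 on chromosome 4, over 74214 bp from 12117491 to 12191704, with 1 other coding gene inside.

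Over this span H3K27ac covered 17.6%, H2A.Z 15.1%, H3K4me1 8.12%, H3K27me3 7.91%, H3 6.44% and H3K4me3 1.27%. The 6 coding genes flanking the cluster, 3 on each side, had H3K4me3 over 11.4% of their bases, against 1.57% of the bases of the 20 members. H3K4me3 marked 1 of the 20 genes, CRK5, with 378 bp. H3K27ac marked 14 of them, from 0 bp in CRK7, CRK9 and CRK22 to 1394 bp in CRK11, with a median of 410 bp. H2A.Z marked 15, from 0 bp in CRK11 and CRK16 to 1457 bp in CRK21, with a median of 475 bp, and CRK11 thus joined the highest H3K27ac to no H2A.Z. H3K27me3 marked 11, from 0 bp in 8 genes to 1638 bp in CRK17, in 20 regions of which the longest was 508 bp. Of all genes, H3K4me3, H3K27ac, H2A.Z and H3K27me3 marked 25.7%, 56.6%, 38.2% and 41.9%. At CRK length the shares were 35.9%, 72.9%, 44.3% and 45.2%. No H3K27me3 domain ran across the row. The mark covered 9.22% of the bases of the 20 members and 2.47% of the spaces outside annotated genes of any kind. Over all coding genes it covered 10.4% of the bases, and 9.31% at CRK length, so the members lay near both.

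**Figure D4:**
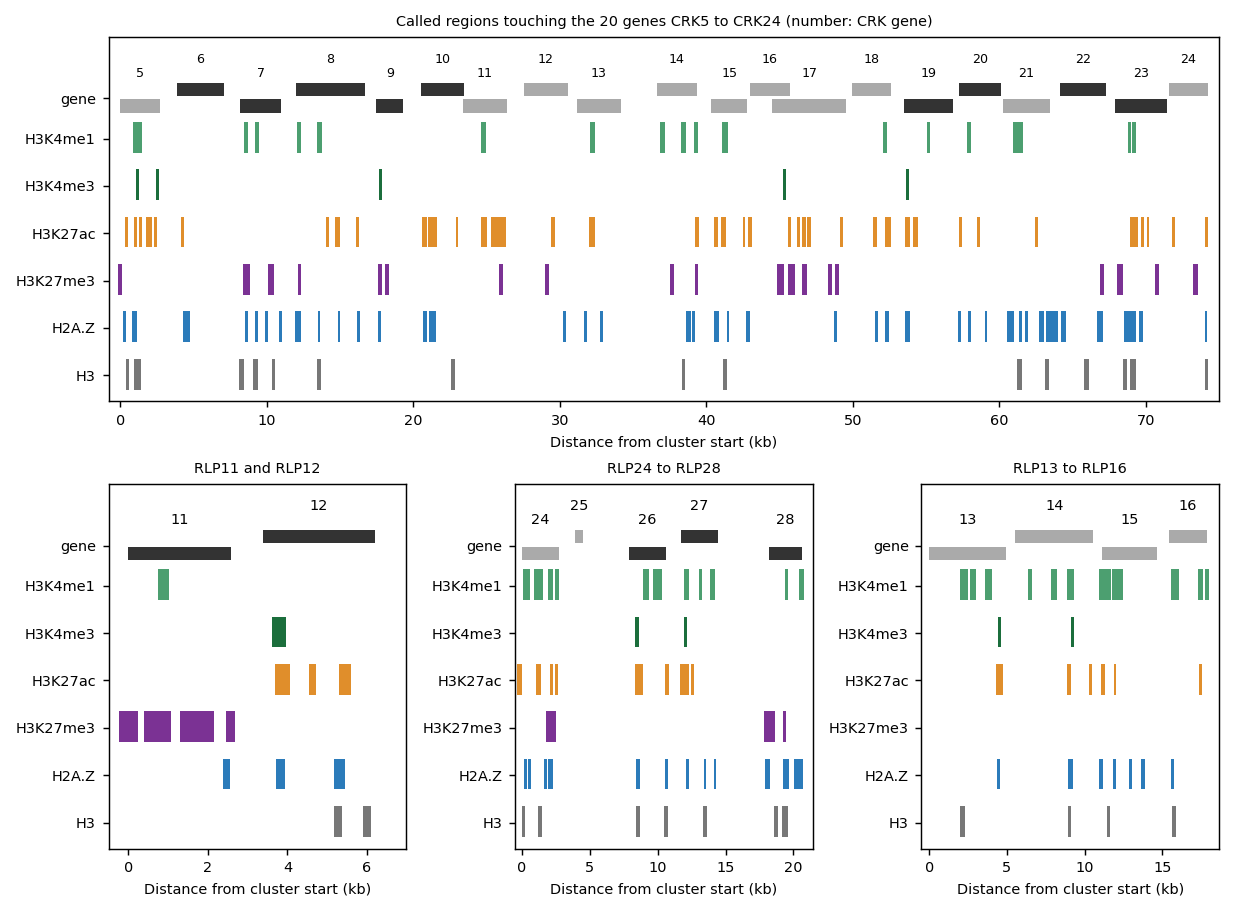
Called regions (coloured blocks, 1 row a target) that touch the members of 4 tandem clusters, against distance from the cluster's first base (kb); black genes are on the plus strand, grey genes on the minus strand, and numbers are CRK genes above and RLP genes below. H3K27me3 lies in scattered blocks along the CRK5 to CRK24 row, fills RLP11 beside an RLP12 without any, and is missing over RLP13 to RLP16.

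The other large CRK clusters resembled it in some marks only. CRK36 to CRK40, over 61249 bp, had H3 on all 5 genes, from 211 bp in CRK39 and CRK40, which is 1 smallest region each, to 910 bp in CRK37. No gene of this cluster was marked by H3K4me3. H3K4me1 marked all 5 genes of CRK30 to CRK34, from 320 bp in CRK32 to 936 bp in CRK34, and H3K27ac marked only CRK34 with 645 bp. Of all genes, H3, H3K4me3, H3K4me1, H3K27ac and H3K27me3 marked 42.6%, 25.7%, 52.1%, 56.6% and 41.9%. At CRK length the shares were 57.4%, 35.9%, 77.6%, 72.9% and 45.2%. H3K27me3 covered 7.57% of the bases of the 5 members CRK30 to CRK34. In their span, which also holds 3 other coding genes, it covered 12.0% of the spaces outside annotated genes of any kind. CRK2 and CRK3 on chromosome 1 both carried H3K4me1, H3K4me3, H3K27ac and H3K27me3.

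CRK28 and CRK29 overlap by 470 bp and differed most on the start marks. CRK28 held 1841 bp of H3K4me1, the most of any member, with 0 bp of H3K4me3, 179 bp of H3K27ac, 0 bp of H3K27me3, 0 bp of H2A.Z and 211 bp of H3. CRK29 held 1093 bp, 779 bp, 1083 bp, 0 bp, 183 bp and 422 bp for the same targets in that order. CRK29 thus had the most H3K4me3 of any member, in a gene next to one with none; neither had H3K27me3. CRK28 is known to act with BAK1 in defence, and CRK29 is among its partners.

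Among RLP clusters, RLP24 to RLP28 on chromosome 2 differed from gene to gene. RLP24 held 1788 bp of H3K4me1, 0 bp of H3K4me3, 781 bp of H3K27ac, 714 bp of H3K27me3, 989 bp of H2A.Z and 527 bp of H3, while RLP25 held none of the 6. RLP26 and RLP27 had H3K27ac (626 and 846 bp) and no H3K27me3. RLP28 had the reverse, with 0 bp of H3K27ac, 695 bp of H3K27me3 and 1109 bp of H2A.Z. RLP13 to RLP16 on chromosome 1 shared some marks: each carried H3K4me1, from 941 bp in RLP16 to 1362 bp in RLP13, and H3, from 211 to 311 bp, and no H3K27me3 region was called in the 4 genes or the spaces between them. Of the 6 flanking coding genes H3K4me1 also marked 6, H3 4 and H3K27me3 3. H3K4me1 covered 29.9% of the bases of these flanking genes and 29.3% of those of the 4 members. Of all genes H3K4me1 marked 52.1%, H3 42.6% and H3K27me3 41.9%. H3K27ac marked RLP13, RLP14 and RLP15, with 373 to 474 bp, and H2A.Z the same 3 genes, while RLP16 held 179 bp of H3K27ac and 183 bp of H2A.Z.

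Some adjacent pairs also parted. RLP11 held 254 bp of H3K4me1, 1904 bp of H3K27me3 and 183 bp of H2A.Z, with no H3K4me3, H3K27ac or H3. RLP12, 816 bp downstream, held 344 bp of H3K4me3, 849 bp of H3K27ac, 505 bp of H2A.Z and 422 bp of H3, with no H3K4me1 or H3K27me3. Apart from H2A.Z, no target was called in both genes. RLP37 and RLP38 parted likewise on H3K27me3, at 0 and 1976 bp, but RLP37 lies wholly inside the coding gene XRCC4, so its bases count for both genes. In other clusters of 2 members H3K27me3 marked both. These were CRK2 and CRK3, RLP20 and RLP21, RLP22 and RLP23, RLP30 and RLP31, and RLP32 and RLP33.

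Over all neighbouring members of a cluster, exactly 1 of the pair was marked by H3K27me3 in 13 of 29 CRK pairs (44.8%) and in 5 of 17 RLP pairs (29.4%), against 42.3% of all pairs of neighbouring coding genes. H3K27me3 marked both in 9 CRK pairs (31.0%) and 4 RLP pairs (23.5%), against 20.7% of all pairs. Both were marked by H3K4me1 in 13 of 17 RLP pairs (76.5%) and in 14 of 29 CRK pairs (48.3%), against 30.1% of all pairs. For H2A.Z both were marked in 13 CRK pairs (44.8%) and 6 RLP pairs (35.3%), against 16.0%. Pairs in a row share genes and are not independent. A pair share also rises with the share of individual members marked. Among clustered members H3K4me1 marked 89.3% of RLP and 73.5% of CRK genes, H2A.Z 53.6% and 64.7%, and H3K27me3 46.4% and 52.9%. Of all genes these targets marked 52.1%, 38.2% and 41.9%. Likeness between neighbours beyond these shares was not tested.

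RLP genes in clusters were marked by H3K4me1 in 25 of 28 cases (89.3%) and single RLP genes in 9 of 24 (37.5%), against 52.1% of all genes and 69.9% at RLP length. The median length was 3085 bp in single and 2768 bp in clustered RLP genes, and the part of length was not tested. Without genes under 1831 bp the H3K4me1 counts were 25 of 27 and 9 of 19. In CRK genes the shares were 25 of 34 (73.5%) and 4 of 7 (57.1%), against 77.6% at CRK length. H3K27me3 marked 13 clustered RLP genes (46.4%) and 6 single ones (25.0%), against 41.9% of all genes and 45.0% at RLP length. H3K27ac marked 19 (67.9%) and 19 (79.2%), against 56.6% and 70.1%. Genes of 1 cluster share position and ancestry, so the 28 clustered genes are 11 places rather than 28 independent ones.

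The position of the marks along the genes was read from annotated starts. In the first 500 bp H3K27ac covered 23.7% of CRK and 29.0% of RLP bases, against 33.5% over coding genes of at least 1000 bp, and H3K4me3 7.80%, 9.11% and 15.0%. H2A.Z covered 25.0% of that stretch in CRK genes, 11.4% in RLP genes and 17.2% in all, and it peaked 175 bp after the start in CRK genes and 675 bp after it in RLP genes. H3K4me1 reached into the starts, at 11.5% in CRK and 7.95% in RLP genes against 4.09% in all. The profiles of the families rest on 41 and 52 genes, and single genes move them.

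**Figure D5:**
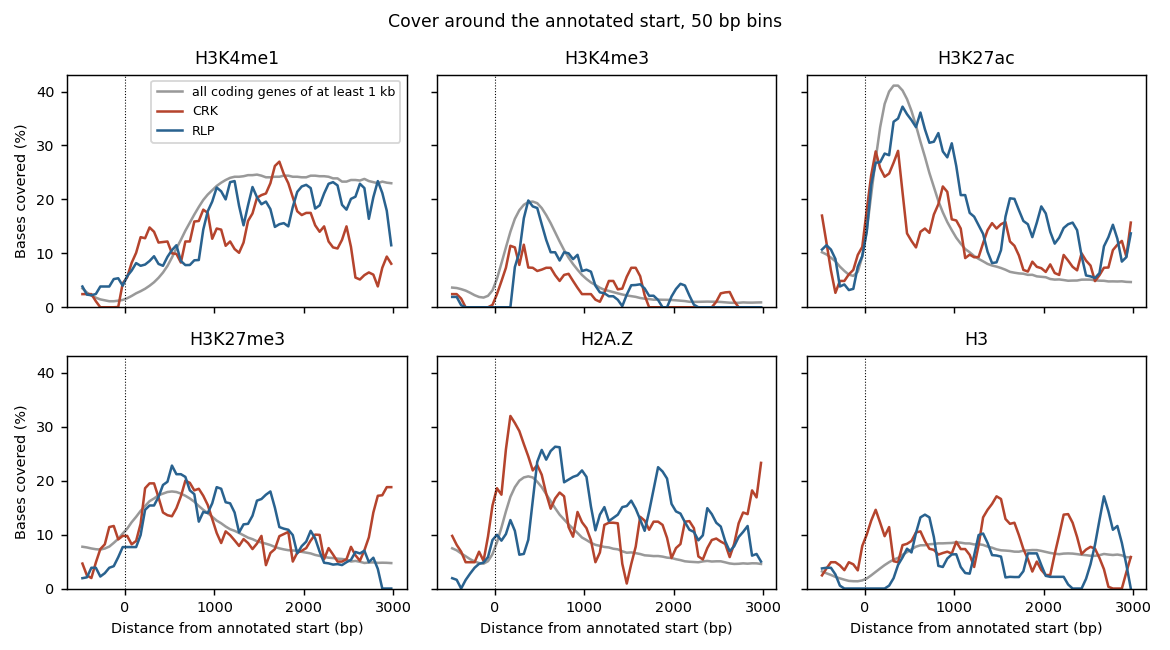
Percent of bases covered (y axis) in 50 bp bins from 500 bp before to 3000 bp after the annotated start (x axis, bp), for 41 CRK genes in red, 52 RLP genes in blue and 23065 coding genes of at least 1000 bp in grey; bins past a gene's end leave that gene out. H2A.Z in CRK genes peaks at 32.0%, 175 bp after the start, and the H3K27ac peak is 29.0% in CRK and 37.2% in RLP genes, against 41.1% in all.

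In the 26 CRK genes with 7 exons, exon 1 (876 bp on average) had 26.8% of its bases under H3K27ac, 20.8% under H2A.Z and 14.1% under H3K27me3, and exon 7 (506 bp) 4.66%, 6.45% and 3.78%. H3K4me1 lay inside, over 24.8%, 24.9% and 24.3% of exons 2, 4 and 5 but 4.07% of exon 3, which is 121 bp on average. Introns and exons were covered to a like extent by H3K4me1 (14.0% and 13.6%) and H3K27me3 (9.31% and 8.89%). Introns were covered less than exons by H3K27ac (10.7% and 14.7%), H2A.Z (7.63% and 11.8%) and H3K4me3 (1.99% and 3.09%), and more by H3 (8.37% and 5.90%).

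Members with a role known from other work did not form 1 class. CRK2, which phosphorylates the NADPH oxidase RBOHD, held 769 bp of H3K4me1, 509 bp of H3K4me3, 792 bp of H3K27ac, 313 bp of H3K27me3, 0 bp of H2A.Z and 633 bp of H3. CRK4, CRK5, CRK19 and CRK20, whose forced expression gives cell death, held 179, 1062, 793 and 358 bp of H3K27ac and 1560, 111, 0 and 0 bp of H3K27me3. CRK4 alone of these was marked by H3K27me3. CRK13, also linked to cell death and defence, held 398 bp of H3K27ac and no H3K27me3. CRK6 and CRK7, both linked to tolerance of extracellular oxidative stress, parted on H3K27me3, at 0 and 925 bp. CRK6 held 179 bp of H3K27ac, too little to count as marked, and CRK7 held 0 bp. Only 71.8% of the 50 bp start positions of CRK6 are unique. CRK10, of which a mutant allele collapses xylem vessels, held 1118 bp of H3K27ac and 747 bp of H2A.Z. CRK14 held 158 and 540 bp of these. CRK36, a partner of the cytoplasmic kinase BIK1, held 482 bp of H3K27me3 and no H3K27ac, and CRK41 held 411 bp of H2A.Z with neither.

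Among receptors of microbial molecules, RLP23, which perceives the peptide nlp20, held 1041 bp of H3K4me1, 189 bp of H3K4me3, 1386 bp of H3K27ac, 1730 bp of H3K27me3, 1519 bp of H2A.Z and 399 bp of H3. RLP32, the receptor of bacterial translation initiation factor 1, held 896, 189, 105, 1917, 1481 and 117 bp in the same order. Both have high total cover by H3K27me3 and H2A.Z, and they differ in H3K27ac. No H2A.Z region of RLP32 reached 500 bp. RLP1, which senses a Xanthomonas molecule, held 904 bp of H3K4me1, 358 bp of H3K27ac and 740 bp of H2A.Z and no H3K27me3. RLP30, needed for the response to a Sclerotinia elicitor, held 672 bp of H3K27ac and 241 bp of H3K27me3, but the gene lies wholly inside AT3G05350 and its marks cannot be assigned to 1 of the 2 genes. RLP42 held none.

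Of other defence members, RLP3 (RFO2, resistance to Fusarium oxysporum) held 802 bp of H3K4me1, 471 bp of H3K27ac and no H3K27me3. RLP51 (SNC2) held 506 bp of H3K4me3 in 1 region 204 bp after the start, the longest H3K4me3 region of an RLP gene, with 223 bp of H3K27ac and 500 bp of H2A.Z. RLP52, linked to powdery mildew resistance, held 956 bp of H3K27ac and no H3K27me3, and RLP55 held 183 bp of H2A.Z and nothing else. Of the developmental members, RLP4, found at cell edges in growing lateral roots, held 1159 bp of H3K4me1 and 612 bp of H3K4me3, the most H3K4me3 of an RLP gene. RLP44, which links cell wall state to brassinosteroid signalling, held 315 bp of H3K4me3, 179 bp of H3K27ac and 241 bp of H3K27me3 in a gene of 1238 bp.

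The remaining high values are given by family. In RLP genes H3K27ac was highest in RLP56 (1991 bp), RLP46 (1609 bp) and RLP53 (1572 bp), ahead of RLP23 (1386 bp) and RLP33 (1020 bp). In CRK genes it was highest in CRK11 (1394 bp), CRK17 (1180 bp), CRK10 (1118 bp), CRK29 (1083 bp) and CRK5 (1062 bp), so 3 RLP genes held more than any CRK gene. H3K4me1 in RLP genes followed RLP24 with RLP45 (1654 bp), RLP13 (1362 bp), RLP15 (1307 bp) and RLP4 (1159 bp). H2A.Z in RLP genes followed RLP23 (1519 bp) and RLP32 (1481 bp) with RLP33 (1125 bp), RLP28 (1109 bp) and RLP24 (989 bp). In CRK genes it was highest in CRK21 (1457 bp), CRK42 (1204 bp), CRK23 (1067 bp), CRK8 (865 bp) and CRK7 (778 bp). In CRK genes histone H3 was highest in CRK37 (910 bp), CRK7 (864 bp) and CRK5 (749 bp), and in RLP genes in RLP28 (640 bp), RLP56 (633 bp) and RLP9 (545 bp). In RLP53, 374 bp are shared with AT5G27065.

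Genes that act with these receptors were read from lists. H3K27me3 marked 2 of 10 partner kinases and 9 of 14 downstream genes, against 41.9% of all genes, and the difference between these short lists was not tested. Of the 10 partner kinases and co-receptors of RLPs (SOBIR1, BAK1, SERK1, SERK2, SERK4, CLV1, CRN, ER, ERL1 and ERL2), H3K4me1 marked 10, H2A.Z 7, H3K27ac 7, H3 6, H3K4me3 3 and H3K27me3 2. Of all genes these targets marked 52.1%, 38.2%, 56.6%, 42.6%, 25.7% and 41.9% in the same order. The partner genes run from 2108 bp (SOBIR1) to 6583 bp (ER), and longer genes have more room for a region. SOBIR1, the adaptor kinase of many RLPs, held 509 bp of H3K4me3, 462 bp of H3K27ac and no H3K27me3. BAK1, the shared co-receptor, held 2401 bp of H3K4me1, 680 bp of H3K27ac and 482 bp of H3K27me3. ERL2 held the most H3K27me3 of the 10, at 2621 bp, and no H3K27ac. ERL1 also held no H3K27ac, with 104 bp of H3K27me3.

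Of 9 other cell surface immune receptors, H3K4me1 marked 8, H3K27ac 8, H3 7, H3K4me3 4, H2A.Z 3 and H3K27me3 1, which was LYK5. Of all genes these targets marked 52.1%, 56.6%, 42.6%, 25.7%, 38.2% and 41.9% in that order. At RLP length, a range that holds all 9 receptors, the shares were 69.9%, 70.1%, 52.7%, 33.9%, 43.8% and 45.0%. The flagellin receptor FLS2 held 641 bp of H3K27ac and the chitin receptor CERK1 547 bp, both without H3K27me3. Of 14 downstream genes, H3K27ac marked 13, H3 10, H3K4me1 9, H3K27me3 9, H3K4me3 8 and H2A.Z 2. RBOHD, the oxidase downstream of many receptors, held 857 bp of H3K27ac and 1472 bp of H3K27me3. The H2A.Z count of 2 of 14 in signalling genes stood under the 38.2% of all genes, on the other side from both receptor families.

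Other receptor classes gave the nearest comparison. Among 183 leucine-rich repeat kinase genes, 81 lectin kinase genes and 118 NBS-LRR genes chosen by product, H2A.Z marked 66.7%, 44.4% and 49.2%, so the CRK share (63.4%) was near that of the leucine-rich repeat kinases, whose median length is 3823 bp. H3K27ac marked 77.0%, 72.8% and 72.0% of them, all above the CRK share of 51.2%. H3K27me3 marked 49.7%, 43.2% and 58.5%, and H3K4me3 25.7%, 21.0% and 25.4%.

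The label of the cells was checked on 4 lists of markers. H3K27me3 marked all 5 root hair markers and H3K27ac 1 of them, while of 7 non-hair genes H3K27ac marked 4 and H3K27me3 4, GLABRA2 among both; of all genes these marked 56.6% and 41.9%. Of 3 endodermis markers H3K27ac marked 3 and H3K27me3 1, and of 3 stele markers H3K27ac marked none and H3K27me3 all 3. The part of nuclei from other cells in the members' marks was not tested.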

How the data were processed

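Per the labels, chromatin of INTACT-purified non-hair nuclei had been precipitated with 1 antibody a target. The submitters' processing notes name HOMER, deepTools 2.0, Bowtie2 and SAMtools 0.1.19 and build TAIR10. The caller's settings, threshold, control and rule for joining regions were not given in the sources used here. All deposited files hold only positions (chromosome, start, end), with no signal, count or score, so a deeper library can give more and longer regions and cover is not an amount of a mark.

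From these positions the covered bases of every nuclear gene were computed with Python 3.11.15 and NumPy 2.4.6, converted to 1-based coordinates. The covered-base count was tested on simulated regions. Genes, exons and sequence came from RefSeq TAIR10.1, whose nuclear coordinates are those of TAIR10. A gene was marked at 200 covered bases, tandem neighbours had at most 2 other coding genes between them, and repeats were found as runs of 50 bp that recur on either strand. There were 9 CRK and 10 RLP genes that share bases with another coding gene, and such bases counted for each. Named genes were the 5 highest per family and target, members with known roles, members with no region, members with H3K4me3 and H3K27me3, and clusters of 4 or more; pairs and further values were chosen after they were seen. A downstream gene whose locus and symbol disagreed was left out, giving 14. The members and lists were chosen with earlier results of these data known. No test was possible, and alternatives are given in the closing section. Protein sequences were not used here.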

Additional observations from a re-analysis of the deposited data

How the results depend on the processing

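No paired analysis was possible because each target has 1 library. The counts of marked genes depend on the threshold. With at least 25% of the gene covered, the counts for H3K4me1, H3K4me3, H3K27ac, H3K27me3, H2A.Z and H3 were 7, 0, 8, 6, 5 and 3 in CRK genes and 14, 2, 17, 10, 12 and 1 in RLP genes. For H2A.Z that is 12.2% of CRK and 23.1% of RLP genes against 15.2% of all genes, so the CRK share then lies below all genes. The H3K27ac shares are 19.5% and 32.7% against 24.3%, and those of H3K27me3 14.6% and 19.2% against 19.3%. Those of H3K4me1 are 17.1% and 26.9% against 25.6%, of H3K4me3 0% and 3.85% against 5.31%, and of H3 7.32% and 1.92% against 4.82%. With only regions of at least 500 bp the counts were 4, 1, 3, 2, 2 and 1 in CRK genes and 11, 1, 14, 9, 3 and 0 in RLP genes. In the same order the CRK shares were 9.76%, 2.44%, 7.32%, 4.88%, 4.88% and 2.44%. The RLP shares were 21.2%, 1.92%, 26.9%, 17.3%, 5.77% and 0%. All genes stood at 18.4%, 4.14%, 14.6%, 11.7%, 4.46% and 0.987%. With at least 1 bp, H3K4me3 marked 13 CRK (31.7%) and 22 RLP genes (42.3%), against 40.1% of all. Without regions of the smallest size, H3K27me3 marked 14 CRK genes (34.1%, against 26.0% of all), and H3 9 CRK (22.0%) and 10 RLP genes (19.2%), against 19.8%. The other counts under these settings moved by less than 1.5 times, as did all 12 in an alternative added after seeing the data, without the members that share bases with another coding gene. That alternative gave H2A.Z in 23 of 32 CRK genes (71.9%) and H3K27ac in 31 of 42 RLP genes (73.8%). With no other gene between neighbours, 18 RLP genes lay in 8 clusters. Of 30 covered shares of cluster spans, 28 moved with only long regions and 18 without the smallest. Keeping fewer regions or asking for more bases lowers counts by construction, and the 1 bp setting raises them. With H3K27ac at no base rather than under 200, a rule also added after seeing the data, H3K27me3 without H3K27ac fell from 12 to 7 CRK genes and from 5 to 3 RLP genes. Depth is unknown, so an absent region is not an absent mark.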

Other observations

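Genes near the rule but outside it gave these values, with no comparison intended. CLAVATA2 (AtRLP10), a receptor-like protein of meristem peptide signalling, held 1117 bp of H3K4me1, 189 bp of H3K4me3, 1029 bp of H3K27ac, 497 bp of H3K27me3, 486 bp of H2A.Z and 316 bp of H3. All 6 targets thus touched it. TOO MANY MOUTHS (AtRLP17), which patterns stomata in the shoot epidermis, held no region of any of the 6 targets. ARCK1 (CRK45), whose product is not named as a receptor, held 740 bp of H3K27me3 and 229 bp of H2A.Z and nothing else. The pseudogene RLP18 held 1246 bp of H3K27me3 and 404 bp of H3, and the pseudogene RLP49, between RLP48 and RLP50, held 1840 bp of H3K27ac and 605 bp of H2A.Z. The CDPK-related kinases that share the symbols CRK1 and CRK3 held 980 and 508 bp of H3K27ac; they are a different protein family.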
